A study of Bos taurus with 25 samples.

Results

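The enzymes of the urea cycle and of ammonia handling were examined in the liver and mammary gland of lactating Holstein cows. The members described are 8 genes chosen by name: CPS1, OTC, ASS1, ASL, ARG2, NAGS, GLUL and GLUD1. Every probe of the array whose transcript name was paired with one of these symbols was taken, and 7 of the 8 genes were found, with 17 of the 43653 probes. ASS1 had 4 probes, GLUL 5, CPS1 3, ARG2 2, and OTC, ASL and GLUD1 1 each. No probe was paired with NAGS, the enzyme that makes the activator of CPS1, and it was not analysed here.

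The cows were multiparous and received weekly intramuscular injections of 5 mL from before calving into lactation, and the study asked how the vitamins altered gene expression in both tissues. Control cows (Ctl) were given saline, the B9 group 320 mg of vitamin B9 (folic acid), the B12 group 10 mg of vitamin B12 (cyanocobalamin) and the B9_B12 group both vitamins together. Biopsies were taken 64 ± 3 days after calving, so that every cow, the controls included, was in milk. Each array held the RNA of 1 cow: 12 liver arrays (3 Ctl, 3 B9, 4 B12 and 2 B9_B12) and 13 mammary arrays (3 Ctl, 3 B9, 4 B12 and 3 B9_B12), from 13 cows of which 12 gave both tissues.

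The urea cycle turns toxic ammonia from amino acid breakdown into urea, and in mammals the whole cycle runs in the periportal hepatocytes of the liver. CPS1 and OTC act inside mitochondria, where they join ammonia, bicarbonate and ornithine into citrulline. ASS1 and ASL act in the cytosol, where citrulline takes up the nitrogen of aspartate and arginine is formed, from which urea is split off. In ruminants the load is high, since ammonia is absorbed from the rumen, and part of the urea returns there. Outside the liver, members of the cycle serve other ends: ARG2, the mitochondrial arginase, supplies ornithine for proline and polyamine synthesis. GLUD1 releases or fixes ammonia on glutamate, and GLUL (glutamine synthetase) captures ammonia as glutamine, in the liver mainly in the pericentral cells that the blood reaches last.

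The arrays had 1 colour, and a level is a log2 intensity, so that 1 unit is a 2-fold difference. Levels of different probes are not comparable. The liver arrays carried the hepatocyte markers (7 of 8 on the array, mean log2 intensity 17.4 to 17.8) and the mammary arrays those of milk-secreting epithelium (7 of 8, 18.01 to 18.21). Some biopsies also carried signal of the other tissue. In the gland the hepatocyte mean lay between 8.04 and 9.71 except in cow 57 of the B9 group, where it was 10.6, with ALB at 11.3 against a median of 6.52. SERPINA1, FGB, AHSG and TF were also highest in that gland. APOA1 (9.74) and TTR (13.57) were not, and reached 11.77 and 15.09 in other glands. In the liver the milk markers lay between 8.08 and 8.11 in Ctl, 8.15 and 9.21 in B9, 8.36 and 8.61 in B9_B12, and 7.71 and 10.2 in B12, with 6 or 7 of 7 well above background on every array. The liver arrays of cows 43 (Ctl), 37 (B12) and 32 (B9_B12) were scanned on a later day and had a signal over background of 2.30 to 3.58, against 5.33 to 10.5 for the others. Profiles of the liver arrays of cows 57 and 32 correlated less with the rest (median 0.9706 and 0.9711) than those of the other liver arrays did (0.9881 or more).

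Between the tissues, the cycle enzymes CPS1, OTC, ASS1 and ASL and both ammonia enzymes GLUD1 and GLUL were higher in the liver, and ARG2 was higher in the mammary gland. For this comparison the scanner intensities were normalized over both tissues, and limma called a gene by its brightest probe where the adjusted p was 0.05 or less and the change 2-fold or more. It called 6 of 7 members higher in the liver, where 8.26% of all 27841 genes were so called, and 1 of 7 higher in the gland, where 11.1% of all genes were. The median difference of the members was 3.39, and that of all genes −0.034 (liver minus gland, log2). In a biopsy, fewer cells of a type and less RNA per cell cannot be told apart.

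CPS1, which commits ammonia to the cycle, lay between 15.27 and 16.47 on the 12 liver arrays (median 16.17) and between 6.13 and 7.67 on the 13 mammary arrays (median 6.31). The gland signal was well above background on 10 of 13 arrays, and the tissues were far apart. The difference was 9.63 ± 0.15 (SE, log2), a fold of 792, with a limma adjusted p of 1.86e-21. With 3 glands not well above background the size depended on the processing, from 6.74 as the mean of its 3 probes to 11.99 with the image software's processed signal. It had the same direction in 12 of 12 cows, for which an exact permutation test by sign flips, two-sided, gave the smallest p it can, 0.000488. Within cows the difference ran from 7.59 to 10.34, the lowest in cow 57. Of all genes, 99.8% had a smaller liver excess. The other CPS1 probes were not well above background on any mammary array and gave bounds: at least 44.6-fold and at least 32.6-fold higher in the liver, from the lowest signal that passed as above background on each array.

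OTC, the next mitochondrial step, lay between 8.91 and 9.82 in the liver (median 9.41) and between 5.91 and 6.15 in the gland (median 5.98). No mammary array had it well above background. By these normalized values it was therefore at least 10.3-fold higher in the liver (limma adjusted p = 7.54e-21), again in 12 of 12 cows. The bound holds for this scaling, since the fitted difference of 3.39 was 2.90 with normexp values scaled by the 75th percentile and 7.92 with the processed signal.

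ASS1, which condenses citrulline with aspartate, lay between 16.04 and 16.64 over the livers (median 16.41) and 9.81 and 10.93 over the glands (median 10.26). Unlike OTC it was well above background on all 13 mammary arrays. The difference was 6.13 ± 0.11 (SE), a fold of 69.8 (limma adjusted p = 1.63e-20), and the other 3 probes gave between 5.79 and 6.11. ASL, which splits argininosuccinate into arginine and fumarate, lay between 12.87 and 14.21 over the livers (median 13.62) and 9.23 and 9.61 over the glands (median 9.38). It too was measured on all 13 mammary arrays, with a difference of 4.20 ± 0.10 (SE), a fold of 18.4 (limma adjusted p = 8.86e-19). So in the gland both enzymes that make arginine from citrulline were measured above background on every array, while OTC was not on any.

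ARG2 showed another order. It lay between 7.74 and 9.43 over the livers (median 8.46) and 8.59 and 11.01 over the glands (median 10.51), and the tissues overlapped. It was higher in the gland by a fold of 3.49 (difference −1.80 ± 0.24, SE, limma adjusted p = 1.37e-06). That direction held in 11 of 12 cows, with a within-cow mean of −1.99 ± 1.04 (SD) and an exact permutation p of 0.000977, two-sided. Cow 57 was the exception at 0.55. In the authors' table, normalized within each tissue, the difference was −0.58 and no longer reached 2-fold. Relative to the median of all genes it lay between −1.86 and −0.89 over the scalings tried. The second ARG2 probe gave −1.66.

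**Figure D1:**
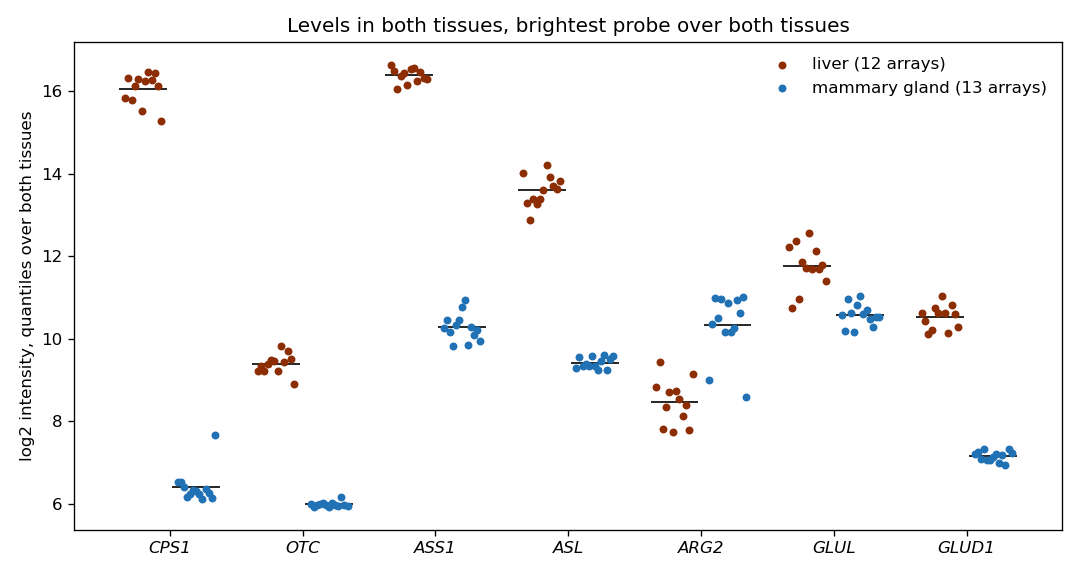
Log2 intensity (vertical axis, quantile normalized over both tissues) of the 7 members by their brightest probe over both tissues. Points are arrays (12 of liver, 13 of mammary gland) and lines are means. CPS1, OTC, ASS1, ASL and GLUD1 do not overlap between tissues, and GLUL and ARG2 do.

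GLUD1, glutamate dehydrogenase, lay between 10.10 and 11.03 over the livers (median 10.60) and 6.93 and 7.34 over the glands (median 7.17). The tissues did not overlap, and the liver was 10.3-fold higher (difference 3.37 ± 0.09, SE, limma adjusted p = 1.62e-17). GLUL differed least of the members that were higher in the liver. Its liver levels lay between 10.73 and 12.56 (median 11.75) and its gland levels between 10.17 and 11.04 (median 10.57), with overlap. The liver was 2.29-fold higher (difference 1.20 ± 0.17, SE, limma adjusted p = 4.81e-06), in 11 of 12 cows (cow 36 was at −0.24), with an exact permutation p of 0.000977, two-sided. The other 4 GLUL probes gave differences between 0.89 and 1.26.

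Further genes of nitrogen handling were taken from lists chosen by name. SLC25A15, the mitochondrial ornithine carrier of the cycle, was called higher in the liver (3.60, log2), and of the 3 transport genes found it was the 1 called. Of 11 genes of glutamine and glutamate metabolism, 4 were called higher in the liver and 4 in the gland. GLS2, the liver glutaminase, was higher in the liver by 7.02, whereas SLC1A5, a glutamine transporter, differed by −5.06, SLC38A2, another amino acid transporter, by −2.90, and ASNS, asparagine synthetase, by −2.38. All 3 were higher in the gland. Of 7 genes of ornithine, proline and polyamine metabolism, 3 were called in each direction: OAT, which turns ornithine towards proline, differed by −4.44 and PYCR1, which completes proline, by −4.25 (both higher in the gland), while the proline-degrading enzymes PRODH and ALDH4A1 were higher in the liver by 3.48 and 5.41. Of 13 genes of amino acid breakdown, 10 were called higher in the liver and 1 in the gland, where 8.26% and 11.1% of all genes were so called. The genes of the lists with a large liver excess were ALB (albumin, 10.79), PCK1 (gluconeogenesis, 9.68), CYP2E1 (a pericentral cytochrome), HNF4A (a hepatocyte transcription factor) and HSD17B13 (a lipid droplet enzyme). PCK1 was well above background on all 13 mammary arrays and ALB on 10, but CYP2E1 on 4, HNF4A on 3 and HSD17B13 on 2, so that the size of the last 3 cannot be read. Of the other lists, ammonia, urea and bicarbonate genes had 1 call in each direction of 5, arginine-using genes 2 of 7 higher in the liver, regulators 1 higher and 2 lower of 5, pericentral genes 1 in each direction of 4, and periportal genes 5 of 7 higher in the liver.

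Within a tissue, no member was called for any vitamin treatment. The levels below are those of the authors' log2 table, which was normalized within each tissue, so they are not set across tissues, and each member is given by its brightest probe in the tissue. The 3 treatments of a tissue were compared with the same control arrays, so that the comparisons are not independent of each other. The p-values measure the spread between these cows.

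In the liver with B12, all 7 members had a mean below that of the control cows, with a median difference of −0.23, while 50.1% of all genes were below and their median was −0.00019. None of the 7 was called by limma or by Cyber-T, the test of the study's methods, by the same thresholds, while limma called 0.00359% of all genes (1 gene) and Cyber-T 27 genes. At an unadjusted p below 0.05, 1 member by its brightest probe and 1.86% of all genes passed. The count of 7 went to 6 with the slide as a fixed block, and without cow 36, cow 37 or the control cow 51.

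ASL was that member. Its level was 15.22, 14.91 and 14.73 in the control cows and 14.32, 13.84, 14.42 and 14.65 in the B12 cows. All 4 treated cows lay below all 3 controls, the nearest pair by a small margin. The 3 endothelial markers also lay below the controls in all 4 (mean 8.69 to 8.83 against 8.87 to 9.03). The 5 muscle markers lay above (6.65 to 6.89 against 6.63 to 6.64), but only 2 or 3 of these 5 were well above background on each array. The hepatocyte markers overlapped, and the part of these markers was not tested. The ASL difference was −0.65 (SE 0.22, 95% interval −1.14 to −0.16, a fold of 1.57), with an adjusted p of 1 by limma and an exact permutation p of 0.0571, two-sided, where the smallest possible is 0.0286. It was −0.31 on slide 1 and −1.07 on slide 8, which held 1 array of each group, and −0.51 without the arrays of the later scan day. ASL was the 1 member of 7 whose treated and control arrays did not overlap, and 4.99% of all genes were separated in this way.

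For CPS1 the outcome depended on the probe. The brightest was at 17.16, 16.95 and 17.14 in the control cows and at 17.00, 16.55, 16.34 and 16.82 in the B12 cows, where cow 36 lay within the control range. The CPS1 difference was −0.41, with a 95% interval of −0.89 to 0.077. The other 2 CPS1 probes differed by −0.78 and −0.60 and had all 4 treated cows below the controls. Their unadjusted p by limma was 0.0104 and 0.0108, with an adjusted p of 1 for both, and their exact permutation p, two-sided, was 0.0571 and 0.0286. OTC was at 10.49, 10.07 and 10.35 in Ctl and at 9.96, 9.81, 10.08 and 10.15 with B12, where cows 40 and 52 lay within the control range. ARG2 separated the cows in another way: cow 36 had 10.06, and the other 3 B12 cows 8.10, 8.02 and 8.09, against 9.02, 8.51 and 8.85 in Ctl. The liver array of cow 36 also had the highest mean of the milk markers (10.2), but that of cow 37, with 9.98, had an ARG2 level of 8.10. The part of mammary tissue in this value was not tested.

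With B9, 3 of 7 members had a mean below the controls in the liver (median difference 0.0058, 48.3% of all genes below). A slide block or leaving out cow 41 made it 6, and leaving out the control cow 43 or the later scan day made it 5. None was called by limma or Cyber-T, which called 0% and 3 of all genes, and 1 of 7 had an unadjusted p below 0.05, against 3.15% of all genes. This was OTC, at 10.49, 10.07 and 10.35 in Ctl and at 10.12, 9.81 and 9.45 with B9. The groups overlapped in 1 treated cow, and the difference was −0.51 (95% interval −0.91 to −0.11, limma adjusted p = 0.891). It was −0.34 without cow 57 and −0.99 with the slide as a fixed block. Cow 57 had the lowest OTC and CPS1 (16.14) of all 12 livers. Among the B9 livers it also had the highest milk and muscle markers, which are given beside ARG2 below. Their part in OTC was not tested.

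ARG2 was the 1 of 7 members separated from the controls with B9, where 8.23% of all genes were. It was at 9.02, 8.51 and 8.85 in Ctl and at 9.22, 9.26 and 9.71 with B9. Each treated cow was above each control cow by this probe. The difference was 0.60 (SE 0.47, 95% interval −0.43 to 1.63, limma adjusted p = 0.891), and the exact permutation p of 0.1, two-sided, is the smallest that 3 cows against 3 allow. Without the control cow 43, or without the later scan day, it was 0.46, and the slide as a fixed block moved it to 0.95. The second probe gave 0.33, and its groups overlapped (8.19 to 9.15 with B9, 8.38 to 8.40 in Ctl). The milk markers in the B9 livers were 8.15 to 9.21 against 8.08 to 8.11 in Ctl, highest in cow 57, which also had the highest ARG2 of the 3. The muscle markers were 6.68 to 6.78 against 6.63 to 6.64, with 3 of 5 well above background on each of these arrays. Their part was not tested.

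With both vitamins, 2 liver arrays stood against 3. The mean was below the controls for 5 of 7 members (median −0.27, 44.9% of all genes below). This count became 2 with the image software's processed signal scaled by the 75th percentile, or without cow 38. The median was 0.024 with that signal, 0.083 without cow 38 and −0.018 with normexp values scaled by the 75th percentile. Limma and Cyber-T called none of 7, against 0% of all genes by limma and 17 genes by Cyber-T, and 0 members passed an unadjusted p below 0.05, against 6.08% of all genes. OTC and CPS1 were separated from the controls, 2 of 7 members, where 22.6% of all genes were. OTC was at 9.80 and 10.00 in the B9_B12 cows, against 10.49, 10.07 and 10.35 in Ctl. CPS1 was at 16.58 and 16.82, against 17.16, 16.95 and 17.14. Both B9_B12 livers also lay above the controls in the mean level of the milk markers (8.36 and 8.61 against 8.08 to 8.11), the 3 endothelial markers (9.15 and 9.53 against 8.87 to 9.03) and the 5 lymphoid markers (9.43 and 9.70 against 8.41 to 9.34). The hepatocyte markers overlapped (17.63 and 17.77 against 17.55 to 17.64). The part of these markers in the values was not tested.

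Each of these mitochondrial enzymes was lower in both treated cows, by less than the intervals could set apart from 0. The difference was −0.40 for OTC (95% interval −0.85 to 0.045) and −0.39 for CPS1 (−0.96 to 0.19), each with a limma adjusted p of 0.664. The exact permutation p, two-sided, was 0.1 for CPS1 and 0.2 for OTC, and 0.1 is the smallest that 2 against 3 allows. CPS1 was at −0.055 with normexp values scaled by the 75th percentile, and at 0.024 with the processed signal in that scaling.

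**Figure D2:**
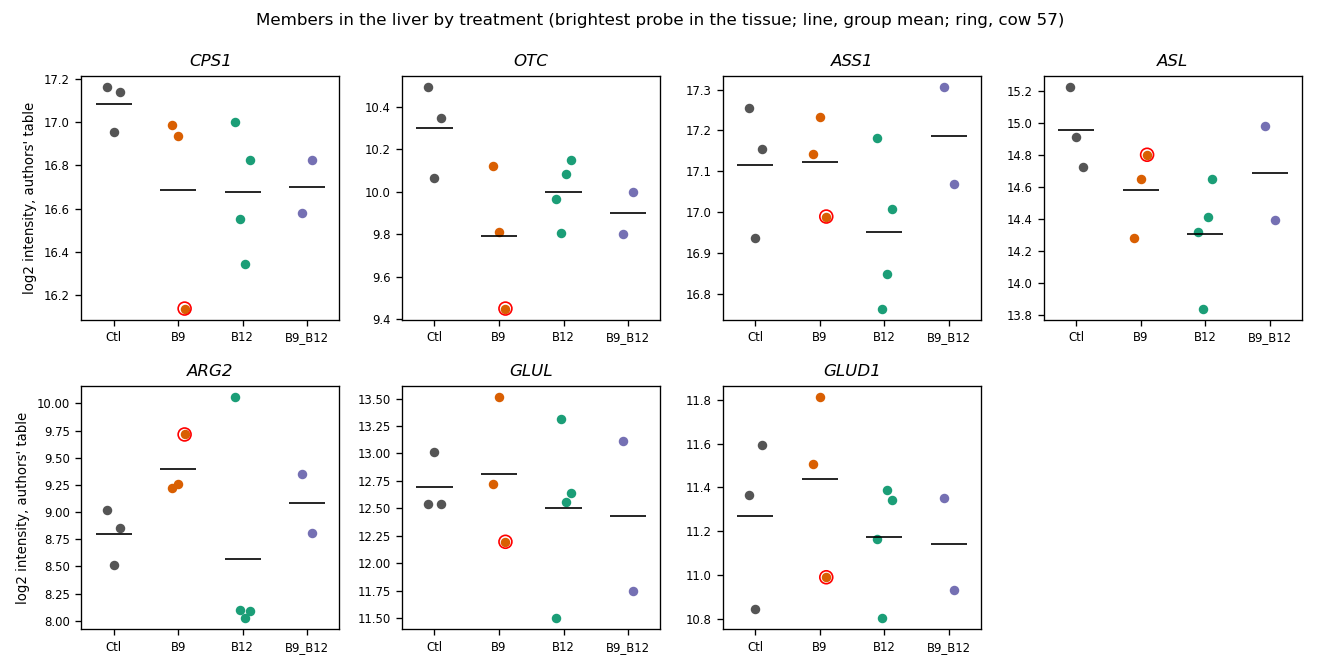
Log2 intensity in the authors' table (vertical axes, scaled for each gene and not starting at 0) of the 7 members in the liver by treatment (Ctl 3, B9 3, B12 4 and B9_B12 2 arrays). Points are arrays, lines group means, and a ring marks cow 57. ASL is the member whose 4 B12 arrays all lie below the 3 controls, and ARG2 splits the B12 cows into 10.06 and 8.02 to 8.10.

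ASS1 by its brightest probe lay between 16.76 and 17.31 over all 12 livers, with a within-group SD (0.163) smaller than that of all but 10.9% of genes. The SDs of single groups were 0.123 to 0.184 by this probe and 0.098 to 0.383 by the other ASS1 probes. By group the brightest probe was at 17.26, 16.94 and 17.16 in Ctl, 17.14, 17.23 and 16.99 with B9, 17.18, 16.76, 16.85 and 17.01 with B12, and 17.31 and 17.07 with both. All groups overlapped, and its differences were −0.16 with B12, 0.0058 with B9 and 0.072 with both. GLUD1 was at 11.37, 10.85 and 11.60 in Ctl, 11.51, 11.81 and 10.99 with B9, 11.16, 10.80, 11.39 and 11.34 with B12, and 11.35 and 10.93 with both, again with overlap throughout. GLUL ranged from 11.50 to 13.52, and its within-group SD of 0.676 was above that of 94.2% of genes, as that of ARG2 (0.653) was above 93.4%. The median SD of all genes was 0.296. GLUL was at 12.54, 13.01 and 12.54 in Ctl, 12.72, 13.52 and 12.19 with B9, 11.50, 13.31, 12.56 and 12.64 with B12, and 13.12 and 11.75 with both. The groups overlapped throughout, and the widest interval among the members was that of GLUL with both vitamins, from −1.45 to 0.92.

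The test of whether the combined effect differed from the sum of the single effects (the B9 by B12 interaction) called 0 of 7 members in the liver and 0% of all genes by limma, with 0 members and 3.55% of genes at an unadjusted p below 0.05. ASL had the largest interaction, 0.75 (SE 0.35, 95% interval −0.0087 to 1.52, limma adjusted p = 1.00). It was 0.46 without cow 32 of the B9_B12 group and 0.33 without the later scan day.

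**Figure D3:**
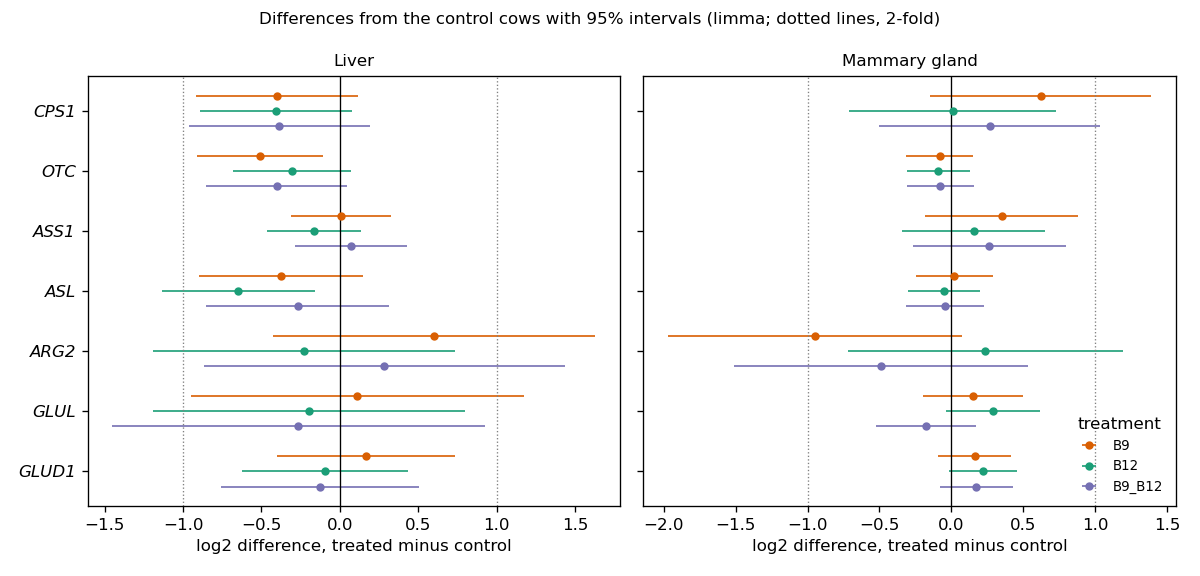
Difference from the control cows (horizontal axes, log2, treated minus control) of each member, on the left for the liver and on the right for the mammary gland, after B9, B12 and B9_B12. Points are limma estimates and bars 95% intervals, and dotted lines mark 2-fold. The intervals of ASL with B12 (−1.14 to −0.16) and OTC with B9 (−0.91 to −0.11) in the liver leave out 0, and no member passed the adjusted threshold.

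In the mammary gland, 0 of 7 members were called by limma and by Cyber-T with each treatment, and 0 had an unadjusted p below 0.05. With B12, 2.37% of all genes passed the unadjusted threshold, with B9 2.56% and with B9_B12 1.99%, while limma called 0% of genes with B12, 0% with B9 and 0% with B9_B12, and Cyber-T 9, 8 and 7 genes. The median difference of the members was 0.16 with B12, 0.15 with B9 and −0.044 with both. That of all genes was 0.0011, −0.0047 and −0.0044. Over the alternatives the median of the members ran from −0.013 to 0.26 with B12, 0.044 to 0.20 with B9 and −0.0995 to 0.066 with both. OTC was at the background on all 13 arrays, so that no treatment difference in it can be read.

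ARG2 was the widest of the members in the gland. It was at 9.50, 10.15 and 9.86 in Ctl, 9.40, 9.41 and 7.84 with B9, 10.21, 9.75, 10.09 and 10.24 with B12, and 8.26, 9.60 and 10.18 with both. The B9 cows all lay below the controls, while the other treatments overlapped with them. With B9 it was the 1 of 7 members separated, where 6.74% of all genes were, and the difference was −0.95 (SE 0.47, 95% interval −1.97 to 0.072, limma adjusted p = 1, exact permutation p = 0.1, two-sided, the smallest possible). Without cow 57 it was −0.43, and the second ARG2 probe gave −1.02 with all 3 cows, where B9 (7.04 to 8.98) and Ctl (8.81 to 9.60) overlapped. The gland biopsy of cow 57 was the one with the highest hepatocyte markers (10.6, against 8.05 to 8.82 in the controls). The 5 lymphoid markers lay below the controls in all 3 B9 glands (9.12 to 9.74 against 9.79 to 10.16), lowest in cow 57. The part of either list in the ARG2 levels was not tested. With both vitamins ARG2 had the largest difference, −0.49 (95% interval −1.51 to 0.53, limma adjusted p = 1, exact permutation p = 0.7, two-sided), which was 0.053 without cow 31. The gland of cow 31 had the second highest hepatocyte markers (9.71) and the highest endothelial markers (9.51, against 8.69 to 9.03 in Ctl), and their part was not tested. No member was separated there, against 6.74% of all genes.

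With B12 GLUL had the largest difference of the members, and the groups overlapped. It was at 9.92, 9.72 and 9.54 in Ctl, and 10.19, 9.86, 10.25 and 9.77 with B12. The difference was 0.29 (SE 0.15, 95% interval −0.036 to 0.61, limma adjusted p = 1.00, exact permutation p = 0.2, two-sided, smallest possible 0.0286). It was 0.094 as the mean of the 5 GLUL probes, of which 1 went the other way (−0.21). None of 7 members was separated with B12, against 3.76% of all genes. The milk markers lay below the controls in all 4 B12 glands (18.01 to 18.13 against 18.15 to 18.17). The gland of cow 36 had the highest erythroid markers (11.81, against 8.65 to 8.82 in Ctl). The part of these markers was not tested. With both vitamins GLUL was at 9.81, 9.43 and 9.42, and its interaction was −0.61 (95% interval −1.09 to −0.14, unadjusted p = 0.0160, limma adjusted p = 0.999), or −0.37 as the mean of the 5 probes. It was the 1 member of 7 with an unadjusted interaction p below 0.05 in the gland, where 3.27% of genes were, and limma called 0 members and 0% of genes.

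CPS1 in the gland was at 6.89 in cow 57 and between 4.96 and 5.55 in the other 12 cows. This gave the B9 group a mean of 5.76 ± 0.98 (SD, n = 3) against 5.14 ± 0.17 in Ctl (n = 3), a difference of 0.62 with an interval of −0.15 to 1.39, and 0.057 without cow 57. It was 0.15 with normexp values scaled by the 75th percentile and 1.95 with the processed signal, and 2 of the 3 control glands had CPS1 well above background. The gland of cow 57 also had the highest mean of the hepatocyte markers (10.6, with ALB at 11.3), though not the highest APOA1 and TTR. The part of these markers was not tested. ASS1, ASL and GLUD1 in the gland lay between 9.07 and 10.15, 8.50 and 8.87, and 6.04 and 6.52. ASL and GLUD1 varied less than the median gene of the gland, with SDs of 0.149 and 0.136 against a median of 0.219 over all genes.

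**Figure D4:**
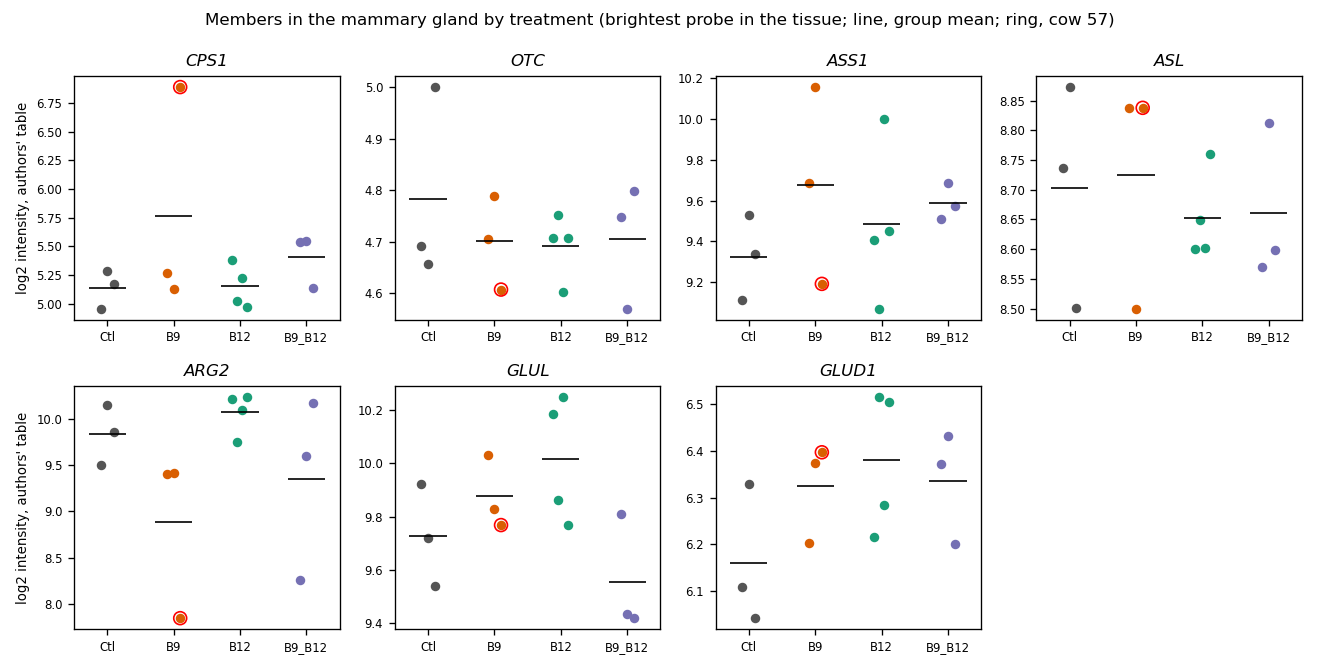
Log2 intensity in the authors' table (vertical axes, scaled for each gene and not starting at 0) of the 7 members in the mammary gland by treatment (Ctl 3, B9 3, B12 4 and B9_B12 3 arrays). Points are arrays, lines group means, and a ring marks cow 57. Cow 57 has the highest CPS1 (6.89) and the lowest ARG2 (7.84), and OTC was not above background on any array.

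Whether an effect differed between liver and gland was tested by limma on the values normalized over both tissues. It called 0 of 7 members for each treatment, and 0% of all genes for B12, 0% for B9 and 0% for B9_B12. At an unadjusted p below 0.05, 1 member passed for B12 (1.64% of genes), 3 for B9 (2.22%) and 0 for both vitamins (4.16%). For B9 the members were CPS1, OTC and ARG2. They are not 3 effects measured in both tissues, since OTC was at the background in every gland, and the CPS1 difference of −0.96 was −0.17 without cow 57. The B9 effect on ARG2 was higher in the liver than in the gland by 1.48 (95% interval 0.068 to 2.89, unadjusted p = 0.0409, limma adjusted p = 1.00), and by 0.82 without cow 57. For B12 the member was ASL, at −0.59 (95% interval −1.12 to −0.067, limma adjusted p = 1). With both vitamins ARG2 had the largest difference, 0.74 (95% interval −0.75 to 2.24, limma adjusted p = 0.841). It was 0.19 without cow 31, which gave the same value as the cow as a fixed replicate block, and 1.40 without cow 38.

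Of the other genes of nitrogen handling, none was called here by limma or by Cyber-T for a treatment in either tissue. The paper, by its own Cyber-T analysis, lists PYCR1 as up-regulated in the liver with both vitamins. The 13 genes of amino acid breakdown lay below the control mean in the liver for 12 with B12, 12 with B9 and 11 with both, and at an unadjusted p below 0.05 the list held 1, 2 and 0 genes. Of all genes, 50.1%, 48.3% and 44.9% lay below, and 1.86%, 3.15% and 6.08% passed that threshold. The 3 counts share the control arrays. With B12, the separated genes with the largest differences were SLC25A15 (−0.55), AASS (lysine breakdown, −0.49) and SIRT5 (a mitochondrial deacylase that acts on CPS1, 0.37). With B9 they were PPARGC1A (a coactivator of gluconeogenic genes, −0.66), HPD (tyrosine breakdown, −0.59) and SLC14A1 (a urea transporter, 0.42). SLC14A1 was well above background on 9 of 12 liver arrays. Over the alternatives PPARGC1A ran from −1.57 to −0.34, the smallest without cow 57, HPD from −0.73 to −0.33 and SLC14A1 from 0.18 to 1.28.

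With both vitamins, PYCR1 was at 10.68 and 10.88 against 8.88 to 9.58 in the controls. Both treated cows were higher, by 1.51 (SE 0.51, 95% interval 0.39 to 2.63, a fold of 2.85, limma adjusted p = 0.664, exact permutation p = 0.1, two-sided). The milk, endothelial and lymphoid markers, above the controls in the same livers, are given beside OTC and CPS1, and their part in PYCR1 was not tested. GLDC, of the glycine cleavage system, differed by −0.60 (95% interval −1.32 to 0.11), and CEBPA, a transcription factor of liver and fat, by 0.50 (−0.28 to 1.29), each with a limma adjusted p of 0.664. Over the alternatives they ran from −0.81 to −0.36 and from 0.27 to 0.82. The PYCR1 effect differed between liver and gland by 1.61 (limma adjusted p = 0.835) for both vitamins and by 0.72 for B12. The largest interaction in the liver was that of HAL (histidine breakdown, 1.32, limma adjusted p = 1.00), and in the gland that of AMDHD1, of the same route (1.23, limma adjusted p = 0.999). They ran from 0.71 to 2.07 and from 0.75 to 1.89 over the alternatives.

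In the gland with B9, the separated genes with the largest differences were CA2 (−0.52), DDAH1 (−0.50) and CA5B (0.42), each with a limma adjusted p of 1. CA2 is a carbonic anhydrase, DDAH1 clears methylated arginines, and CA5B is a mitochondrial carbonic anhydrase. Over the alternatives CA2 ran from −1.04 to −0.34, DDAH1 from −0.73 to −0.27 and CA5B from 0.18 to 0.59. With B12 they differed by less than 0.2: HSD17B13 (−0.18) and CYP2E1 (−0.15), well above background on 2 and 4 of 13 arrays, and AASS (−0.14). With both vitamins none was separated, and ALB had the largest difference, 0.85 (exact permutation p = 0.4, two-sided), or 0.31 to 1.55 over the alternatives. The difference between tissues in the B9 effect was largest for ALB, −1.20, and 0.53 without cow 57.

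Across the 12 livers, after the group means were taken out, CPS1 varied with OTC (correlation 0.66) and ASS1 (0.63), and ASS1 with GLUD1 (0.69) and ARG2 (0.64). GLUL had its lowest correlation with ARG2 (−0.57). Some pairs depended on cow 57 and on the group means. CPS1 and ASL had a correlation of −0.22 with the means taken out, 0.20 with them left in and 0.41 with them left in and cow 57 left out, and CPS1 and ARG2 had 0.24, 0.11 and 0.50. Arrays share scan days and slides, so these correlations (n = 12) are descriptions. The genes most like a member were the highest of 8951 genes by the same correlation. For CPS1 they were SSBP1 (0.968), PLD1 (0.941), CKMT2 (0.926), JCHAIN (0.925) and MAPK9 (0.922), and for GLUL LFNG (0.924), GPR183 (0.916), RRN3 (0.899), LOC574091 (0.898) and CDKN1A (0.895). With the group means left in, the same 5 genes correlated with CPS1 at 0.725, 0.820, 0.917, 0.662 and 0.768, and with GLUL at 0.234, 0.480, 0.445, 0.579 and 0.552. Cow 57, with the lowest CPS1 of the livers, also had the lowest JCHAIN (7.77). The correlations of these most similar genes were not computed without cow 57.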

How the data were processed

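The members and gene lists were chosen with earlier results of these data known. 1 further member and 1 gene of the lists are not reported here. For every array the authors deposited scanner output, whose spot intensity had not been normalized, and a table of log2 values that were background corrected and normalized across the arrays of a tissue. The submitters' notes name Agilent Feature Extraction 9.1, and the file headers 10.7.3.1. Each column of the table matched the scanner file of its own array best (12 of 12 liver, 13 of 13 mammary), with column medians of 6.97 to 6.98 and 6.13 to 6.14. Its log2 scale followed from this match, and no gene was centred. Rows were joined to probes by feature number, and control spots were left out.

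Treatments were tested on the log2 values in R 4.3.3 by limma 3.58.1. All arrays of a tissue shared the fit, with Benjamini-Hochberg adjustment over all 43653 probes. Each of the 27841 names was then read by its brightest probe in the tissue. A call needed an adjusted p of at most 0.05 and at least 2-fold. For levels across tissues, median intensity was corrected by normexp (offset 50) and normalized by quantiles over all 25 arrays. The cow gives the pairing of tissues, and the consensus correlation of both arrays of a cow was −0.0221. Where a probe was not well above background on an array, its bound used the higher of its own signal and the lowest signal well above background there.

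Every member was named for the difference between tissues, together with the 5 highest and 5 lowest genes of the lists. In each treatment comparison, up to 3 members and up to 3 genes of the lists were named whose treated arrays all lay beyond all control arrays, by size of change, or else the one with the largest change. OTC in the liver with B9, SLC25A15, GLS2, PRODH and ALDH4A1 between tissues, the steady and variable members and the values of cows 36 and 57 were chosen after their values were seen. The 5 genes most like CPS1 and GLUL were named by correlation. Of the probes, 53.9% had a current symbol. Positions are not given, since the array and the name table use different builds. The number of cows limits the precision. Alternatives were other background corrections and scalings, the mean of all probes, a filter on dim probes, Cyber-T (window 101, confidence 10), slide or cow as a block, and each cow left out. Scan day and the mammary array of cow 57 were added after the data were seen. Cyber-T and the limma tests of treatments, of tissues and of the B9 difference of effects were checked on simulated data. The interaction, permutation and Dixon tests were not.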

Additional observations from a re-analysis of the deposited data

Results flagged for a closer look

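ARG2 in the liver of the B12 cows was singled out because 1 cow lay far from the others of the group. Cow 36 was at 10.06 and the other 3 between 8.02 and 8.10, so that the gap to the nearest was 0.962 of the range, above Dixon's 95% critical value for 4 arrays. Chance gives such a value in about 1 group in 20, and of the 14 groups tested (7 members in both B12 groups) this was the 1 past it.

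The B9 effect on ARG2 stood out because it went opposite ways in the tissues: by the brightest probe every treated cow was above every control in the liver and below every control in the gland. By the second ARG2 probe the groups overlapped in both tissues. The difference of the effects was 1.48 (log2, 95% interval 0.068 to 2.89), with a limma adjusted p of 1.00. Without cow 57 it was 0.82. The markers of the other tissue were highest in cow 57 in both B9 groups (10.6 for hepatocyte markers in the gland, 9.21 for milk markers in the liver), and their part was not tested.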

How the results depend on the processing

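The count of members called was 0 for every treatment, interaction and difference of effects under every alternative run. Between tissues, 7 members were called, and 7 with the cow as a fixed or random replicate block, so that the pairing changed no call. The count was 7 with any 1 cow left out and under the other settings, except 6 with the authors' table, where ARG2 was below 2-fold. Scaling by the 75th percentile moved the median of all genes between tissues from −0.034 to −0.58 (processed signal) or −0.86 (normexp), and the authors' table to 0.49. Relative to the median of all genes, ARG2 was then at −1.42, −0.89 and −1.07. Within treatments, CPS1 in the liver with both vitamins turned from −0.39 to 0.024 with the processed signal, ARG2 in the gland with both vitamins from −0.49 to 0.053 without cow 31 (−0.91 to 0.053 over all cows left out singly), the difference between tissues in the B9 effect on ALB from −1.20 to 0.53 without cow 57 (−2.17 to 0.53), and that on OTC from −0.40 to 0.34 with the processed signal. The cause was not tested. Between tissues CPS1 ran from 6.74 (mean of its probes) to 11.99 (processed signal), OTC from 2.90 (normexp with the 75th percentile) to 7.92 (processed signal), HNF4A from 3.64 to 12.61 and HSD17B13 from 6.55 to 12.41. Of 1140 alternative values for named genes, 1135 kept direction and side of the threshold. With B9_B12 in the liver, the median of all genes was 0.034 in the authors' table. It was 0.024 with normexp values normalized by quantiles within the tissue, and 0.30 with normexp values scaled by the 75th percentile. With B9 in the gland these medians were −0.0047, −0.0018 and −0.22. OTC in the gland, HSD17B13 and CYP2E1 there were limited by signal over background, and groups of 2 to 4 cows limit the rest.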
